A study of Mus musculus with 25 samples.

Results

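Lipid-associated macrophages are cells that take up and digest fat and cell debris, and recruited macrophages descend from blood monocytes that enter a tissue. Their markers were followed here through 10 genes, namely Trem2, Gpnmb, Cd9, Spp1, Itgax, Mmp12, Lgals3, Ccr2, Cx3cr1 and Ly6c2. The genes were chosen by symbol as markers of these cells, and each symbol matched a single gene of the deposited files, so the set holds 10 of 48795 genes. All 10 passed the filter on low counts.

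In healthy liver most macrophages are Kupffer cells, which settle before birth and renew themselves in place. When liver is injured or overloaded with fat, monocytes that carry Ccr2 enter from the blood and mature into macrophages, and those that gather around fatty hepatocytes switch on genes for lipid uptake, lysosomes and matrix breakdown. None of the markers is private to one cell type, and Cd9 and Spp1 in particular are also made by bile duct cells and other liver cells.

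Samples were taken from male mice of the inbred strain C57BL/6J, and each of 25 samples gave 1 RNA library. Liver of uninjected mice fed a control diet (nonDEN-L-CD, n = 3) or a western diet (nonDEN-L-WD, n = 4) was set beside liver of mice given diethylnitrosamine (DEN) and the control diet (DEN-L-CD, n = 4), and beside peritumoral liver (DEN-PT-WD, n = 8) and tumors (DEN-T-WD, n = 6) of mice given DEN and the western diet. DEN, a carcinogen that hepatocytes activate, was injected into the peritoneum at 2 weeks of age at 25 mg/kg, and the diets began at weaning. Tissue was harvested at 36 weeks of age, although the study's supplement gives ages up to 39 weeks for mice given DEN. Lesions of the DEN-L-CD mice were too small to be cut out, so these livers may contain them, and no tumor group exists on the control diet. The label does not say which libraries came from the same mouse.

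Libraries held 21530083 to 38074411 expected counts. The hepatocyte genes Alb, Ttr, Apoa1, Tat, Cyp2e1 and Serpina1c were present in every group, with a summed level of 44700 to 74800 TPM (RSEM's length-corrected share of a library's transcripts) outside tumors, where group medians were 61500 to 68700, and of 31200 to 130000 TPM (median 119000) in DEN-T-WD. The lowest of these sums was that of DEN-T-WD replicate 5. Summed pancreatic enzyme genes, which liver should lack, ranged from 0.32 to 4930 TPM, and with their level as a covariate the number of member genes past the test was the same in every comparison.

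Every member gene except Cd9 had its lowest group mean in nonDEN-L-CD and its highest in DEN-T-WD. The rise came in different places for different genes. Trem2, Gpnmb and Mmp12 were at similar levels in peritumoral liver and tumors, whereas Spp1 and Cd9 separated the tumors from every other library. The summed level of the 10 genes was 60.3 to 69.8 TPM in nonDEN-L-CD, 61.1 to 117 in nonDEN-L-WD, 71.4 or more (median 79.1) in DEN-L-CD, 123 to 450 in DEN-PT-WD and 536 to 1050 in DEN-T-WD. Spp1 alone made up 41.3% to 43.3% of that sum in nonDEN-L-CD and 69.3% to 83.1% in DEN-T-WD. These are bulk samples, in which more cells of a type and more RNA per cell cannot be told apart.

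**Figure D1:**
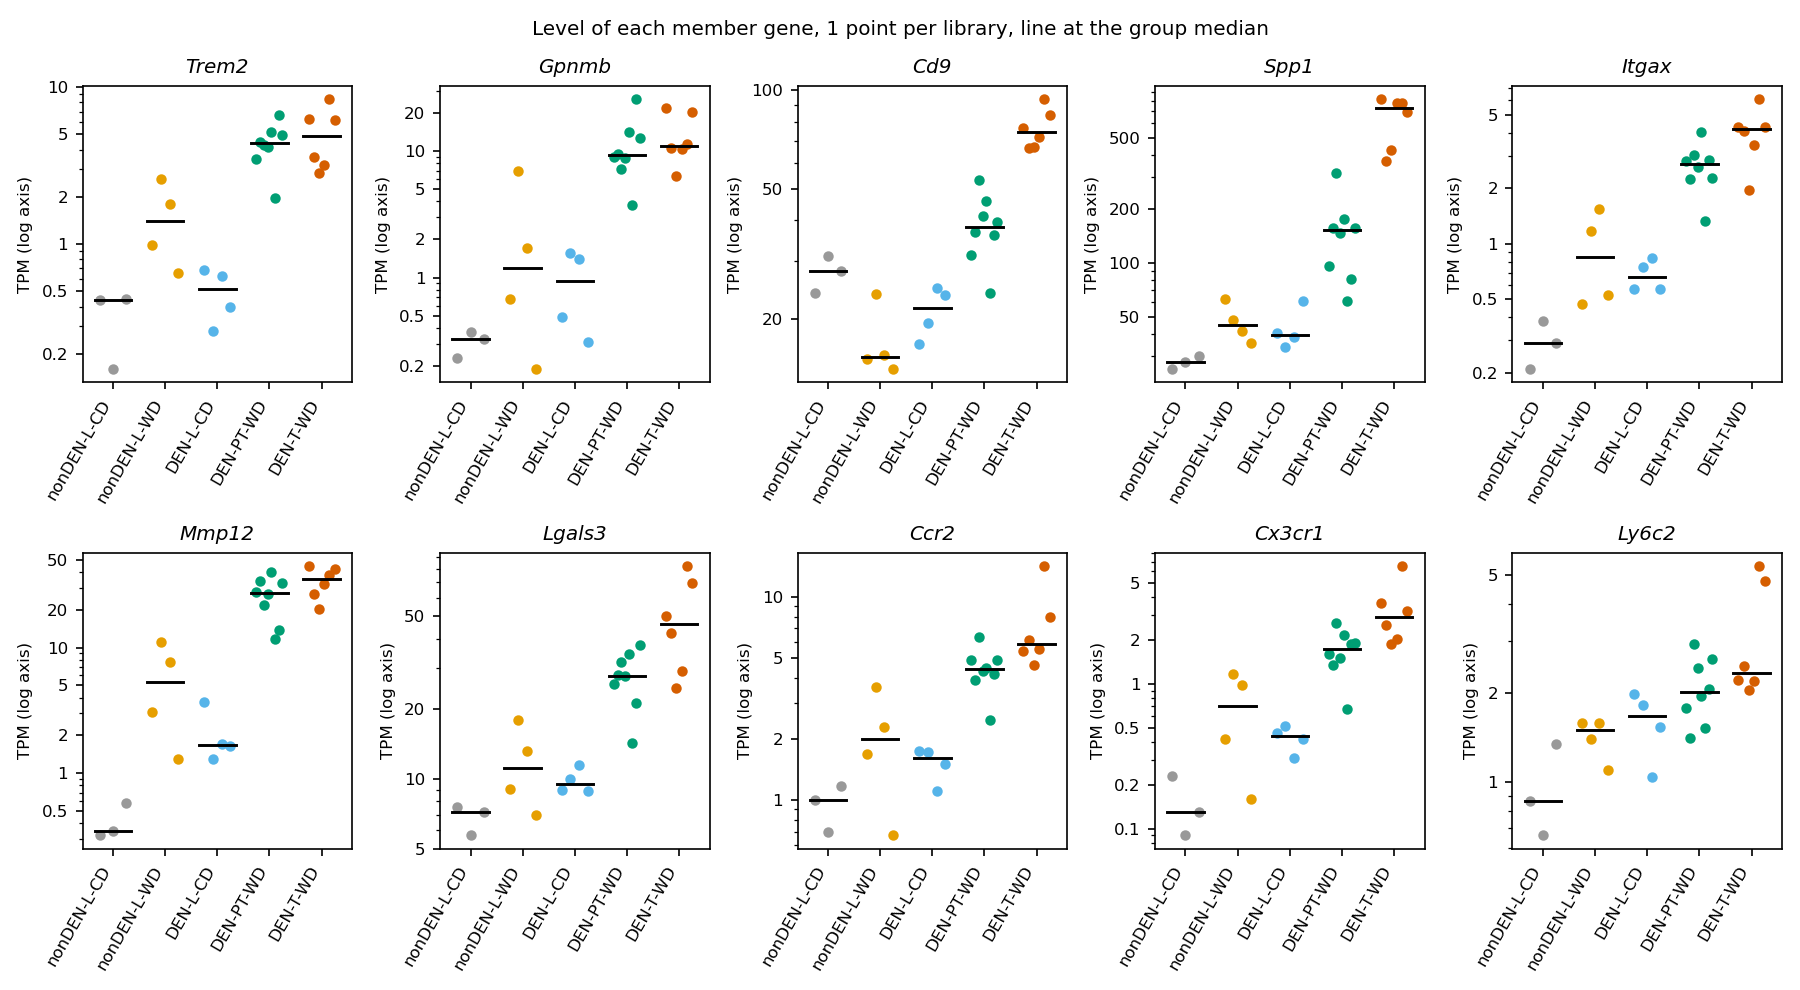
Level in TPM (vertical axis, logarithmic) of each member gene in each library (1 point), by group (horizontal axis), with a line at the group median. Spp1 lay at 372 to 817 TPM in the 6 tumors and at 317 TPM or less in all other libraries, while Trem2, Gpnmb and Mmp12 overlapped between peritumoral liver and tumors.

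Trem2 encodes a surface receptor for lipids and lipoproteins that signals through the adaptor Tyrobp. Its level was 0.44, 0.16 and 0.45 TPM in nonDEN-L-CD, 0.98, 2.61, 1.81 and 0.65 TPM in nonDEN-L-WD, and 0.68, 0.28, 0.63 and 0.40 TPM in DEN-L-CD (replicates in order of their numbers). It ran from 1.97 to 6.62 TPM (median 4.39) in DEN-PT-WD and from 2.83 to 8.36 TPM (median 4.92) in DEN-T-WD. All nonDEN-L-WD libraries stood above the nonDEN-L-CD ones, 7 of the 8 DEN-PT-WD libraries stood above all of nonDEN-L-WD, and tumors overlapped peritumoral liver. The lowest value rests on 4 expected counts.

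Gpnmb, a glycoprotein of lysosomes and the cell surface that phagocytes under lysosomal load induce, varied widely within groups. It was at 0.23, 0.37 and 0.33 TPM in nonDEN-L-CD, at 0.68, 6.91, 1.71 and 0.19 TPM in nonDEN-L-WD and at 0.49, 1.56, 1.4 and 0.31 TPM in DEN-L-CD. DEN-PT-WD covered 3.74 to 25.5 TPM (mean 11.3) and DEN-T-WD 6.36 to 21.7 TPM (mean 13.4). The nonDEN-L-WD libraries ran from below the lowest to above the highest nonDEN-L-CD library, so these groups overlapped.

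Lgals3 encodes galectin-3, a sugar-binding lectin abundant in macrophages and made by several other cells. In nonDEN-L-CD its level was 7.57, 5.71 and 7.17 TPM, in nonDEN-L-WD 9.04, 17.9, 13.2 and 7.0 TPM, and in DEN-L-CD 8.98, 9.98, 11.5 and 8.86 TPM. It reached 14.2 to 37.5 TPM (median 27.8) in DEN-PT-WD and 24.6 to 82.4 TPM (median 46.3) in DEN-T-WD. The DEN-L-CD libraries were all above nonDEN-L-CD, and the DEN-PT-WD and DEN-T-WD ranges overlapped.

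Cd9 encodes a tetraspanin, a membrane organiser found on many cells. Its level in nonDEN-L-CD was 24.0, 31.2 and 28.1 TPM, and among nonDEN-L-CD, nonDEN-L-WD and DEN-L-CD it was the only member with its highest mean there. The values were 15.1, 23.8, 15.6 and 14.1 TPM in nonDEN-L-WD and 16.8, 19.5, 24.9 and 23.7 TPM in DEN-L-CD. DEN-PT-WD ran from 24.1 to 52.9 TPM (median 38.3), and DEN-T-WD from 66.3 to 93.4 TPM (median 74.3). All nonDEN-L-WD libraries were below all nonDEN-L-CD libraries, and every tumor was above every other library.

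Spp1 encodes osteopontin, a secreted protein that binds integrins and Cd44. It was at 25.5, 28.0 and 30.2 TPM in nonDEN-L-CD, 62.7, 47.8, 41.4 and 35.4 TPM in nonDEN-L-WD and 40.7, 34.0, 38.7 and 61.5 TPM in DEN-L-CD. The level was 60.9 to 317 TPM (median 152) in DEN-PT-WD and 372 to 817 TPM (median 736) in DEN-T-WD. Spp1 was the most abundant of the 10 genes in every tumor, and the tumors lay wholly above peritumoral liver.

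Mmp12, the macrophage elastase that cuts elastin, had the largest fold between tumors and nonDEN-L-CD. Levels of 0.32, 0.35 and 0.58 TPM in nonDEN-L-CD compared with 3.05, 11.1, 7.65 and 1.31 TPM in nonDEN-L-WD and with 3.67, 1.29, 1.72 and 1.66 TPM in DEN-L-CD. DEN-PT-WD reached 11.8 to 40.3 TPM (median 27.1) and DEN-T-WD 20.1 to 44.6 TPM (median 35.0). The nonDEN-L-CD libraries did not overlap any other group, and DEN-PT-WD did not overlap nonDEN-L-WD or DEN-L-CD.

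Itgax encodes the integrin chain CD11c, which pairs with Itgb2 and marks dendritic cells as well as macrophages of fatty tissue. It lay at 0.21, 0.38 and 0.29 TPM in nonDEN-L-CD, at 0.47, 1.17, 1.54 and 0.53 TPM in nonDEN-L-WD and at 0.57, 0.75, 0.84 and 0.57 TPM in DEN-L-CD. Peritumoral liver held 1.33 to 4.03 TPM (median 2.71) and DEN-T-WD 1.97 to 6.07 TPM (median 4.19). Both nonDEN-L-WD and DEN-L-CD stood wholly above nonDEN-L-CD.

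Of the genes of recruited cells, Ccr2 encodes the receptor for Ccl2 and Ccl7 that lets monocytes leave the bone marrow. Its level was 1.0, 0.7 and 1.17 TPM in nonDEN-L-CD, 1.68, 3.59, 2.3 and 0.67 TPM in nonDEN-L-WD, and 1.74, 1.73, 1.11 and 1.51 TPM in DEN-L-CD. DEN-PT-WD spanned 2.47 to 6.37 TPM (median 4.39) and DEN-T-WD 4.62 to 14.2 TPM (median 5.83). Ccr2 overlapped between nonDEN-L-CD and each of the nonDEN-L-WD and DEN-L-CD groups.

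Cx3cr1 encodes the receptor for Cx3cl1 and is carried by patrolling monocytes and by monocyte-derived macrophages. It had the lowest mean level of the set in each non-tumor group, at 0.23, 0.09 and 0.13 TPM in nonDEN-L-CD, 0.42, 1.17, 0.98 and 0.16 TPM in nonDEN-L-WD, and 0.46, 0.51, 0.31 and 0.42 TPM in DEN-L-CD. It was 0.67 to 2.63 TPM (median 1.75) in DEN-PT-WD and 1.9 to 6.52 TPM (median 2.88) in DEN-T-WD. DEN-L-CD lay above nonDEN-L-CD, where the lowest library held 6 expected counts.

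Ly6c2, a surface antigen of classical monocytes, overlapped between DEN-L-CD and peritumoral liver. The values were 0.86, 0.66 and 1.35 TPM in nonDEN-L-CD, 1.59, 1.4, 1.59 and 1.1 TPM in nonDEN-L-WD and 1.98, 1.82, 1.04 and 1.53 TPM in DEN-L-CD. They were 1.41 to 2.94 TPM (median 2.01) in DEN-PT-WD and 2.05 to 5.38 TPM (median 2.34) in DEN-T-WD. Of all words of 50 bases in its transcripts, 14.4% also occur in other genes, among them Ly6c1, an endothelial gene that rose from a median of 2.68 TPM in DEN-PT-WD to 12.1 TPM in DEN-T-WD, so reads could have been split between them and the tumor value of Ly6c2 is uncertain.

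With the groups put in order of their mean level, 8 genes followed the order nonDEN-L-CD, DEN-L-CD, nonDEN-L-WD, DEN-PT-WD, DEN-T-WD. Cd9 was lowest in nonDEN-L-WD, then came DEN-L-CD and after it nonDEN-L-CD, and Ly6c2 had nonDEN-L-WD and DEN-L-CD exchanged. The step from DEN-L-CD to nonDEN-L-WD did not pass an adjusted p of 0.05 for any of the 8 genes. For Ly6c2 no neighbouring groups differed beyond their spread, with the adjusted p for the last step, from peritumoral liver to tumor, at 0.0982. These p-values come from edgeR's quasi-likelihood test with Benjamini-Hochberg adjustment over 15625 genes, as do the adjusted p-values that follow. The exceptions are those given for another setting or without a library, which come from that fit and the genes it tested. A gene was called changed if its adjusted p was 0.05 or less and its level differed by 2-fold or more (1 on the log2 scale) in either direction.

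The effect of the western diet alone was asked by setting nonDEN-L-WD against nonDEN-L-CD. Of the 10 genes, 5 rose, where 3.24% of all tested genes rose. Mmp12 rose by a log2 fold change of 3.50 ± 0.65 (SE; adjusted p = 0.000631), Gpnmb by 3.14 ± 0.89 (0.0135), Cx3cr1 by 2.13 ± 0.56 (0.00902), Trem2 by 1.85 ± 0.48 (0.00816) and Itgax by 1.51 ± 0.39 (0.00709). Ccr2 (1.01 ± 0.39, adjusted p = 0.0677) and Ly6c2 (0.54 ± 0.37, 0.304) did not pass. Spp1 (0.61, 0.271) and Lgals3 (0.58, 0.223) did not pass either. Cd9 was lower by less than 2-fold, at -0.83 ± 0.18 (adjusted p = 0.00256).

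The count of 5 leaned on single libraries. Without nonDEN-L-CD replicate 2, Trem2 (1.53, adjusted p = 0.0632), Gpnmb (3.32, 0.0513) and Cx3cr1 (1.89, 0.0599) no longer passed edgeR's test and 2 genes remained, Itgax and Mmp12. Itgax in turn lost its call in a fit of only these groups (1.51, adjusted p = 0.0521) and by limma on log2(TPM + 1) (0.54, 0.129). Gpnmb also lost its call without nonDEN-L-CD replicate 3 (3.14, 0.0513) and without nonDEN-L-WD replicate 2 (1.86, 0.0999). Ccr2 gained a call without nonDEN-L-WD replicate 4 (1.27, 0.0141) or DEN-T-WD replicate 5 (1.01, 0.0345).

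DEN without the western diet was examined as DEN-L-CD against nonDEN-L-CD. Here 2 of the 10 genes rose, against 2.76% of all tested genes. Mmp12 rose by 2.28 ± 0.67 (SE; adjusted p = 0.0185) and Cx3cr1 by 1.60 ± 0.57 (0.0498). The other log2 fold changes were between -0.43 for Cd9 (adjusted p = 0.0958) and 1.31 for Gpnmb (0.36), with Trem2 at 0.49 (0.529), Itgax at 0.95 (0.0897), Spp1 at 0.61 (0.284), Lgals3 at 0.48 (0.341), Ccr2 at 0.68 (0.233) and Ly6c2 at 0.77 (0.138). Neither call held under every setting. Cx3cr1 lost its call under 21 of 34 alternative settings, including without each DEN-L-CD library (adjusted p from 0.0541 without replicate 3 to 0.0921 without replicate 2), and without nonDEN-L-CD replicate 2 its adjusted p was 0.195. Mmp12 lost its call without nonDEN-L-CD replicate 1 (2.07, 0.0631) or 2 (2.08, 0.0927) and without DEN-L-CD replicate 1 (1.85, 0.0676), so that no member passed edgeR's test without nonDEN-L-CD replicate 2 or DEN-L-CD replicate 1.

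Liver that carried both exposures was compared with each alone. In DEN-PT-WD against nonDEN-L-WD, which differ by DEN and by the presence of tumors nearby, 7 of the 10 genes rose, where 2.36% of all tested genes rose. Gpnmb rose by a log2 fold change of 2.05 ± 0.57 (SE; adjusted p = 0.0229), Mmp12 by 2.02 ± 0.42 (0.00467), Spp1 by 1.46 ± 0.33 (0.00777), Trem2 by 1.38 ± 0.34 (0.0123), Itgax by 1.35 ± 0.28 (0.00514), Cx3cr1 by 1.21 ± 0.38 (0.0415) and Lgals3 by 1.07 ± 0.27 (0.0139). Cd9 (0.95, adjusted p = 0.00101) and Ccr2 (0.97, 0.0385) passed the p threshold at just under 2-fold, and Ly6c2 (0.31, 0.487) did not pass. The nonDEN-L-WD libraries were unlike one another, with replicate 2 highest for 7 of the genes and replicate 4 lowest for 9. Without replicate 4 or without replicate 1, Trem2, Gpnmb, Lgals3 and Cx3cr1 lost their calls and 3 genes remained, with adjusted p-values of 0.0514 to 0.125 for the 4 genes without replicate 1 and of 0.0625 to 0.146 without replicate 4. Gpnmb lost its call without nonDEN-L-WD replicate 3 (1.98, 0.0616), Lgals3 without DEN-PT-WD replicate 8 (0.96, 0.0283), and Cx3cr1 without DEN-PT-WD replicate 3, 4, 5, 7 or 8 (adjusted p from 0.0506 to 0.0745). Leaving out nonDEN-L-WD replicate 2 or DEN-PT-WD replicate 6 brought Cd9 and Ccr2 past 2-fold (1.09 and 1.30 without the former, 1.02 and 1.05 without the latter). A fit of only these groups called 5 genes, without Gpnmb (2.04, 0.0673) and Cx3cr1 (1.20, 0.071). With the replicate number as a block 3 were called, Spp1, Itgax and Mmp12. Limma called 6 on log2(TPM + 1) and 9 on log2(TPM + 0.1).

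The contrast of diets in mice given DEN was DEN-PT-WD against DEN-L-CD, in which the diet and the nearness of dissected tumors cannot be told apart. Of the 10 genes 8 rose, all but Cd9 and Ly6c2, against 1.52% of all tested genes. Gpnmb rose by 3.88 ± 0.67 (SE; adjusted p = 0.00198), Mmp12 by 3.24 ± 0.46 (0.000361) and Trem2 by 2.74 ± 0.39 (0.000355). The remaining 5 rose by 1.18 (Lgals3) to 1.92 (Itgax), among them Spp1 by 1.46 ± 0.33 (0.00844), Ccr2 by 1.30 ± 0.31 (0.0122) and Cx3cr1 by 1.74 ± 0.41 (0.0101). Cd9 differed by 0.55 ± 0.15 (0.022), under 2-fold, and Ly6c2 by 0.08 (0.889). Without DEN-L-CD replicate 3 Ccr2 lost its call (1.15, 0.055), and leaving out any other library kept all 8. Both of these contrasts share the 8 DEN-PT-WD libraries, so their values are not independent of each other.

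**Figure D2:**
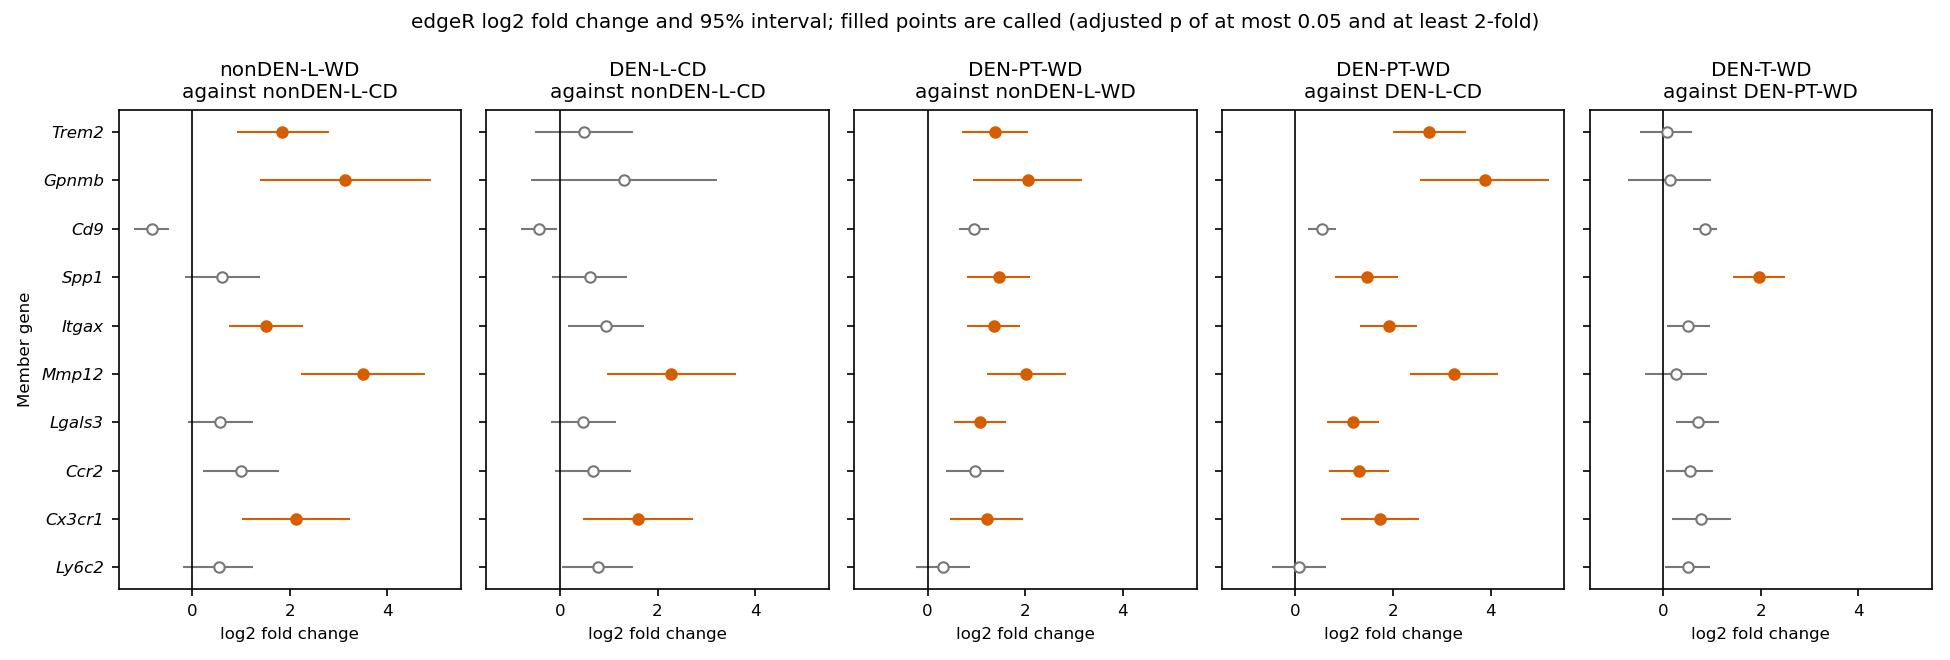
Log2 fold change (horizontal axis) of each member gene with its 95% interval (bars, from the SE of the fit) in the 5 one-step comparisons. Filled points are genes called changed. Gpnmb and Mmp12 moved furthest on the western diet, whereas in the tumor against peritumoral comparison Spp1, at 1.97, was the only gene called.

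Tumors were then set against peritumoral liver. Of the 10 genes 1 rose, Spp1, by a log2 fold change of 1.97 ± 0.27 (SE; adjusted p = 8.86e-06), which is 3.92-fold. Across all tested genes 4.81% rose and 3.09% fell. Cd9 (0.86 ± 0.13, adjusted p = 1.97e-05), Lgals3 (0.71 ± 0.22, 0.0145) and Cx3cr1 (0.78 ± 0.31, 0.049) passed the p threshold at less than 2-fold. Itgax (0.51, adjusted p = 0.0807), Ccr2 (0.54, 0.0932) and Ly6c2 (0.50, 0.0982) did not pass. The remaining genes were Trem2 at 0.07 (adjusted p = 0.867), Gpnmb at 0.13 (0.845) and Mmp12 at 0.26 (0.564; 95% interval -0.37 to 0.90). Spp1 was called after leaving out any single library. In the plot of levels by library, Spp1 and Cd9 are the genes whose tumor points lie clear of all others.

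Against untreated control liver the sums of these steps were larger. In DEN-PT-WD against nonDEN-L-CD 8 of the 10 genes rose, where 10.2% of all tested genes did, and in DEN-T-WD against nonDEN-L-CD 9 rose, where 14.5% did. Mmp12 was 46.0-fold higher in peritumoral liver and 55.2-fold higher in tumors, and Gpnmb 36.5-fold and 40.0-fold. Spp1 was 4.20-fold and 16.5-fold higher, Trem2 9.41-fold and 9.87-fold. Cx3cr1 was 10.1-fold and 17.3-fold higher, Itgax 7.26-fold and 10.3-fold, Ccr2 3.94-fold and 5.72-fold, and Lgals3 3.14-fold and 5.12-fold. Cd9 did not pass in peritumoral liver (log2 fold change 0.12, adjusted p = 0.569) and was 1.97-fold higher in tumors (7.01e-05), just short of the 2-fold threshold. It passed that threshold without nonDEN-L-CD replicate 2 (1.03) or DEN-T-WD replicate 2 (1.01). Ly6c2 rose in tumors (1.35 ± 0.34, 0.00206) and was under 2-fold higher in peritumoral liver (0.85 ± 0.33, 0.0399), where it passed without nonDEN-L-CD replicate 3 (1.18, 0.0245). Both comparisons use the same 3 control libraries.

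Whether the diet difference itself changed with DEN was tested by the interaction (DEN-PT-WD minus DEN-L-CD) minus (nonDEN-L-WD minus nonDEN-L-CD). Only Cd9 passed, at 1.38 ± 0.24 (SE; adjusted p = 0.00135), since it was lower on the western diet without DEN (-0.83) and higher with DEN (0.55). Of all tested genes 1.57% had a positive interaction. For the other 9 genes the adjusted p was at least 0.302, with values from -0.46 for Ly6c2 to 0.89 for Trem2 and 95% intervals as wide as -1.53 to 2.99 for Gpnmb. The DEN arm on the western diet is peritumoral liver, so DEN and the nearness of tumors cannot be told apart here.

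Other genes of the same cells showed which neighbours of the set moved. Of 22 genes of the lipid-associated programme, all of them tested, 4 rose and 1 fell on the western diet without DEN, where 2.04% of all tested genes fell. Those with the largest changes were Cd36, the fatty acid transporter (1.92 ± 0.38, adjusted p = 0.000982), Clec7a, a receptor for fungal glucans (1.41 ± 0.37, 0.00824), and Fabp5, a fatty acid binding protein, which fell (-1.60 ± 0.56, 0.0431). In DEN-L-CD against nonDEN-L-CD 2 rose, Cd36 (1.28) and Clec7a (1.11). In DEN-PT-WD 4 rose against nonDEN-L-WD and 6 against DEN-L-CD, led both times by Clec7a (1.54 and 1.84), the lysosomal tetraspanin Cd63 (1.42 and 1.39) and the proton pump subunit Atp6v0d2 (1.41 and 1.35). Tumors against peritumoral liver gave 4, with Cd63 at 1.88 ± 0.27 (1.66e-05), Fabp5 at 1.39 (0.00772) and Anxa2 at 1.16 (0.000145). Several of these genes, Cd36 and Cd63 among them, are also expressed by hepatocytes.

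Of 13 genes of the recruited monocyte programme 12 were tested. On the western diet without DEN 0 were called by edgeR, DESeq2 or limma, with 2 higher at an unadjusted p under 0.05 in edgeR, and 2 rose in DEN-L-CD against nonDEN-L-CD, Ms4a4c (1.65 ± 0.57, adjusted p = 0.0408) and the calcium-binding S100a4 (1.31 ± 0.44, 0.039). In DEN-PT-WD against nonDEN-L-WD 4 rose, with Ifitm6 (1.28) and Ms4a4c (1.28) ahead of S100a4 (1.16). In tumors against peritumoral liver 0 were called by any of the 3 tools and 0 had an unadjusted p under 0.05 in edgeR. The interaction of DEN with diet was positive for Plac8 (1.06 ± 0.32, 0.044).

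The ligands, receptors and partners of the members are 15 genes, 13 of them tested. Ccl7, a ligand of Ccr2, rose in nonDEN-L-WD (2.48 ± 0.64, adjusted p = 0.00734) and in DEN-L-CD (2.55 ± 0.64, 0.00681), each against the same nonDEN-L-CD libraries. Against nonDEN-L-CD, Ccl7 (3.37) and Ccl2 (1.37) rose in DEN-PT-WD, and 4 of these genes rose in DEN-T-WD, led by Ccl7 (4.06), the Cx3cr1 ligand Cx3cl1 (2.04) and Ccl2 (1.90). In the other 3 one-step comparisons edgeR, DESeq2 and limma called 0, although in edgeR 9 genes were higher and 1 lower at an unadjusted p under 0.05 in DEN-PT-WD against nonDEN-L-WD, 11 higher against DEN-L-CD, and 4 higher and 1 lower in tumors against peritumoral liver. Tyrobp, through which Trem2 signals, was at 0.23 (adjusted p = 0.586) in nonDEN-L-WD against nonDEN-L-CD and at 0.65 ± 0.22 (0.0506) in DEN-PT-WD against nonDEN-L-WD, both below the change of Trem2. Itgb2, the partner of Itgax, was at 0.18 (0.709) and 0.74 ± 0.24 (0.0427).

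Genes shared by macrophages in general had smaller median changes than the members. The pan-macrophage list holds Adgre1, Csf1r, Mpeg1, Cd14, Fcgr1, Mertk, Aif1, C1qa, C1qb and C1qc, and its summed level was 163 to 217 TPM in nonDEN-L-CD, 169 to 278 in nonDEN-L-WD, 177 to 285 in DEN-L-CD, 226 to 522 in DEN-PT-WD and 341 to 717 in DEN-T-WD. Of these 10 genes, Cd14, a co-receptor for bacterial lipopolysaccharide, fell in nonDEN-L-WD (-1.03 ± 0.32, adjusted p = 0.0241) and in DEN-L-CD (-1.03 ± 0.33, 0.0265) against nonDEN-L-CD, where 2.04% and 1.93% of all tested genes fell, and rose in tumors against peritumoral liver (1.82 ± 0.22, 2.17e-06). Fcgr1 rose in DEN-PT-WD against DEN-L-CD (1.06, 0.0486). In DEN-PT-WD against nonDEN-L-WD edgeR and DESeq2 called 0 and limma 1, while 8 of the 10 were higher at an unadjusted p under 0.05 in edgeR. The median log2 fold change of the 10 pan-macrophage genes was 0.17 for diet and 0.61 for peritumoral liver against either single exposure, beside 1.26, 1.28 and 1.60 for the members, while that of all tested genes was 0.00 to 0.02.

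Each member was then compared with the mean of the pan-macrophage genes in the same library, as a difference in log2 CPM (each count divided by the scaled library total). The mean log2 level of those reference genes was 4.15 ± 0.28 (SD) for nonDEN-L-CD, 4.22 ± 0.38 for DEN-L-CD and 4.28 ± 0.18 for nonDEN-L-WD, whereas it was 4.85 ± 0.35 for DEN-PT-WD and 4.95 ± 0.40 for tumors. Two-sided exact permutation tests over libraries were made for 10 genes in 5 comparisons, and 18 of the 50 passed a Benjamini-Hochberg correction over these 50, 17 higher and 1 lower. The values that follow are differences between groups in this relative level and not distances from the reference, since Gpnmb, for example, had a mean relative level of -0.75 in DEN-PT-WD and -2.87 in nonDEN-L-WD. In DEN-PT-WD against nonDEN-L-WD the relative level was higher for 5 genes, Gpnmb by 2.13 (exact permutation p = 0.0141), Mmp12 by 1.71 (0.00404), Itgax by 0.88 (0.00808), Trem2 by 0.86 (0.00404) and Lgals3 by 0.48 (0.00606). In DEN-PT-WD against DEN-L-CD it was higher for 7, Gpnmb by 3.00, Mmp12 by 2.61, Trem2 by 1.97, Itgax by 1.21 and Cx3cr1 by 0.98, all at the smallest p that this exact test allows, 0.00202. Ccr2 (0.65, 0.00606) and Lgals3 (0.49, 0.0121) completed the 7, and that of Ly6c2 was lower (-0.58, exact permutation p = 0.0141).

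In tumors against peritumoral liver the relative level was higher for 5 genes, Spp1 by 1.99 (3.96 against 1.97) and Cd9 by 0.79 (0.72 against -0.07), both at the smallest p of the exact permutation test, 0.000333. Cx3cr1 (0.66, p = 0.002), Lgals3 (0.55, 0.000666) and Ccr2 (0.39, 0.00233) were the others by the same exact test. In the 2 comparisons with nonDEN-L-CD, the smallest p possible is 0.0286 and 0 of 20 passed the correction. The relative level of Trem2 was -4.06 in nonDEN-L-WD against -5.52 in nonDEN-L-CD, a difference of 1.46 (exact permutation p = 0.0286) and that of Mmp12 by 2.95 (p = 0.0571). Without nonDEN-L-WD replicate 4 the number past the correction fell from 18 to 13, losing Trem2, Gpnmb, Itgax and Lgals3 in DEN-PT-WD against nonDEN-L-WD and Ly6c2 in DEN-PT-WD against DEN-L-CD. Ly6c2 also lost its call without any one of the DEN-L-CD libraries and without DEN-PT-WD replicate 1, 4, 5 or 8. Gpnmb in DEN-PT-WD against nonDEN-L-WD lost its call without nonDEN-L-WD replicate 1 or 3 and without 6 of the 8 DEN-PT-WD libraries, and Itgax and Lgals3 without nonDEN-L-WD replicate 1. In DEN-PT-WD against DEN-L-CD, Ccr2 was lost without DEN-L-CD replicate 2, 3 or 4, and Lgals3 without DEN-L-CD replicate 1, 2 or 4 or DEN-PT-WD replicate 4, 5 or 8. The calls of Mmp12 in both comparisons, of Trem2, Gpnmb, Itgax and Cx3cr1 against DEN-L-CD, and the 5 in tumors against peritumoral liver were kept without any single library. On log2(TPM + 1) the number was 13, without Itgax, Ccr2 and Cx3cr1 against DEN-L-CD and without Trem2 and Itgax against nonDEN-L-WD, and Ly6c2 was lost on log2(TPM + 0.1) and with Csf1r as the reference.

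**Figure D3:**
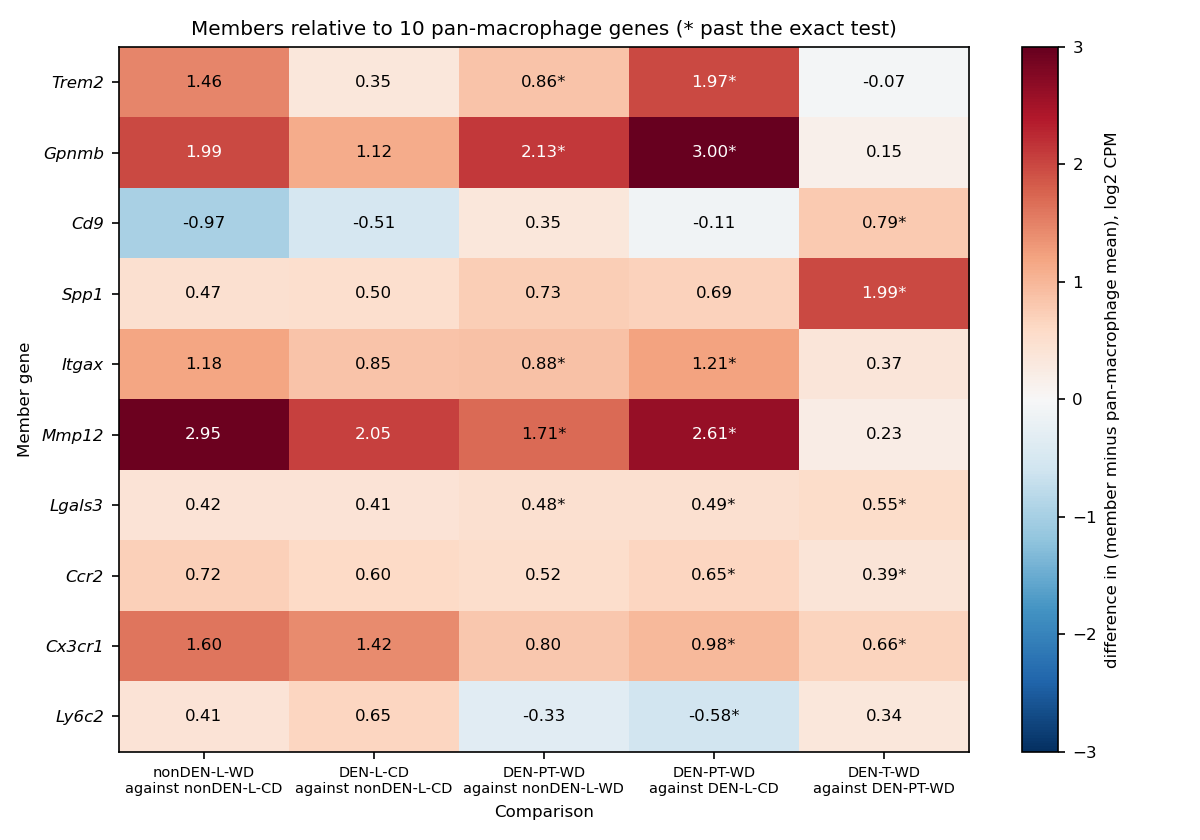
Difference between groups in the level of each member relative to the mean of 10 pan-macrophage genes (log2 CPM, colour scale and printed values) for 5 comparisons, with an asterisk where the two-sided exact permutation test passed the correction over the 50 tests. The relative level of Gpnmb was 3.00 higher in peritumoral liver than in DEN-L-CD, and that of Spp1 was 1.99 higher in tumors than in peritumoral liver.

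Markers of other cells that share these genes were read beside them. Of 9 genes of resident Kupffer cells 0 were called by edgeR or DESeq2 in the 4 one-step comparisons without tumors, where limma called 1 and where 1 to 5 were higher at an unadjusted p under 0.05 in edgeR. In contrast, 5 fell in tumors against peritumoral liver, where 3.09% of all tested genes fell. Marco (-2.04 ± 0.53, adjusted p = 0.0038), Cd163 (-1.75 ± 0.45, 0.00399) and Timd4 (-1.68 ± 0.28, 7.66e-05), which are scavenger or dead-cell receptors, fell furthest. Marco, Cd163 and Timd4 also fell in DEN-T-WD against nonDEN-L-CD, where 5.82% of all tested genes fell and limma called 2 of the list lower and 2 higher. In DEN-PT-WD against nonDEN-L-CD 2 Kupffer cell genes rose, Cd5l (1.36 ± 0.30, adjusted p = 0.000887) and the iron exporter Slc40a1 (1.11 ± 0.22, 0.000341), and limma called 4 higher. The summed Kupffer cell genes were 281 to 568 TPM in peritumoral liver and 203 to 392 TPM in tumors. The summed member genes were at 123 to 450 TPM and 536 to 1050 TPM. That member sum is mostly Spp1 in tumors, at 69.3% to 83.1%, against 41.7% to 70.4% in peritumoral liver. Spp1 was also the only member called in tumors against peritumoral liver.

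**Figure D4:**
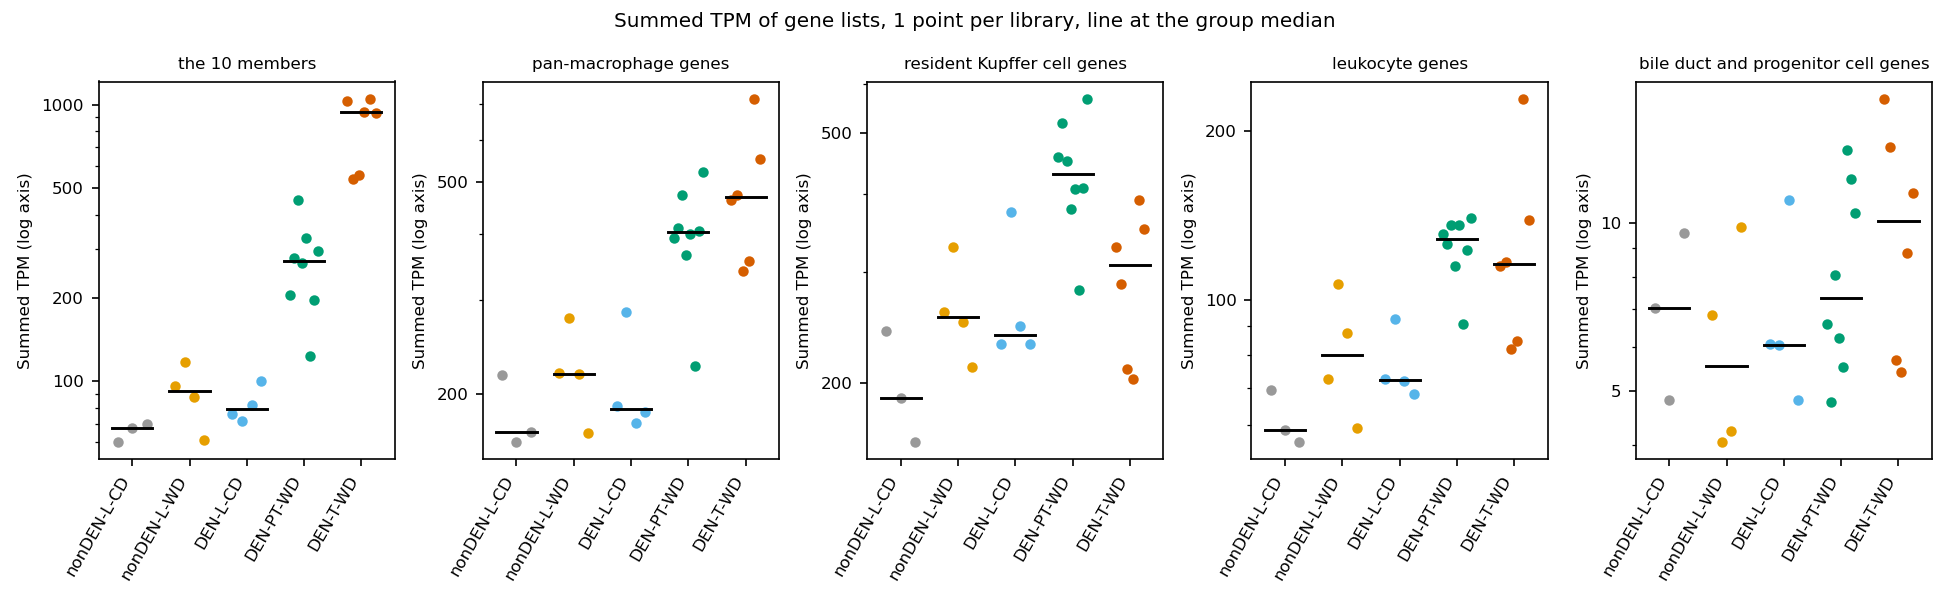
Summed level in TPM (vertical axis, logarithmic) of the member genes and of marker lists of other cells in each library, by group (horizontal axis), with a line at the group median. In tumors the member sum, 536 to 1050 TPM, lay above that of peritumoral liver, while the Kupffer cell sum of 203 to 392 TPM overlapped the lower part of the peritumoral range. Spp1 made up 69.3% to 83.1% of the member sum in tumors.

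Leukocyte genes shared by white blood cells had summed levels of 56.1 to 69.3 TPM in nonDEN-L-CD, 59.3 to 107 in nonDEN-L-WD, 68.2 to 92.7 in DEN-L-CD, 90.6 to 140 in DEN-PT-WD and 82.0 to 228 in DEN-T-WD, and edgeR and DESeq2 called 0 of 5 in the one-step comparisons. Limma called 1, in the contrast of diets after DEN, and up to 3 were higher at an unadjusted p under 0.05 in edgeR. Bile duct genes, of interest because their cells make Spp1 and Cd9, summed to 4.78 to 13.5 TPM in DEN-PT-WD and 5.41 to 16.7 TPM in DEN-T-WD. Of the 6 tested, Sox9 fell in nonDEN-L-WD against nonDEN-L-CD (-1.36, adjusted p = 0.00429) and rose in tumors against peritumoral liver (1.38 ± 0.22, 4.55e-05), whereas Krt19 was at 0.80 to 4.60 TPM in tumors against 1.87 to 6.21 TPM in peritumoral liver. The part of bile duct or tumor cells in the level of Spp1 and Cd9 was not tested. Of the 7 dendritic cell genes, Ccr7 rose in nonDEN-L-WD (1.90) and DEN-L-CD (2.21) against nonDEN-L-CD. By limma 0 of the list were called in any comparison.

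Of 7 T and NK cell genes, Cd8a rose by 2.16 in DEN-L-CD against nonDEN-L-CD, then by 1.67 in DEN-PT-WD against nonDEN-L-WD. Neutrophil genes, 4 of 6 tested, gave 3 that fell in nonDEN-L-WD against nonDEN-L-CD, Retnlg (-2.63), S100a8 (-2.10) and S100a9 (-1.65), and 1 in DEN-L-CD, Retnlg (-2.40). The defining neutrophil gene Ly6g was at 0 in all nonDEN-L-CD, nonDEN-L-WD and DEN-L-CD libraries. Of 7 stellate cell and fibroblast genes, the collagens Col3a1 (1.39), Col1a1 (1.26) and Col1a2 (1.11) rose in nonDEN-L-WD against nonDEN-L-CD, and the same 3 rose in DEN-PT-WD against DEN-L-CD. Of 6 endothelial genes, Lyve1 rose in DEN-PT-WD against nonDEN-L-WD (1.09) and Ly6c1 in tumors against peritumoral liver (2.23 ± 0.36, adjusted p = 5.26e-05). Of 6 hepatocyte genes, Apoa1 (1.04) rose and Cyp2e1 (-1.67) fell in tumors against peritumoral liver, and of 7 pancreatic enzyme genes 0 were called by edgeR, DESeq2 or limma and 0 had an unadjusted p under 0.05 in edgeR.

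In the comparisons with nonDEN-L-CD in which 8 and 9 members rose, genes of several other cells rose as well. Across all tested genes 10.2% rose in peritumoral liver and 14.5% in tumors, while 3.08% and 5.82% fell. Of the 5 leukocyte genes 2 rose in DEN-PT-WD (Coro1a and Laptm5) and 3 in DEN-T-WD (with Ptprc), and limma called 4 in each. Of the 7 dendritic cell genes 2 rose in DEN-PT-WD, Ccr7 (5.53-fold) and Flt3 (2.58-fold), and 4 in DEN-T-WD, led by Ccr7 (7.34-fold), Flt3 (3.23-fold) and Siglech (2.83-fold). Of the 10 pan-macrophage genes 3 and 4 rose, and of the 7 T and NK cell genes 2 in each, Cd8a and Ncr1. Limma called 0 of the T and NK cell genes in either comparison. Of the 7 stellate cell and fibroblast genes 3 rose in peritumoral liver and 4 in tumors. The lipid-associated programme had 9 of 22 risen and 1 fallen in peritumoral liver and 11 risen in tumors, and the recruited monocyte programme 6 of 12 risen in each. Of the 4 neutrophil genes tested 0 rose, while 3 fell in peritumoral liver and 1 in tumors, although limma called 0 in either. Of the 6 hepatocyte genes 0 rose by edgeR, while Tat fell in peritumoral liver and Tat, Cyp2e1 and Serpina1c fell in tumors. Of 6 bile duct and 6 endothelial genes tested 0 were called in peritumoral liver. In tumors 1 of each rose, Cldn4 and Ly6c1. How far the cells of any of these lists contribute to the member levels was not tested.

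Within groups the libraries also differed in a shared way. DEN-PT-WD replicate 6 was lowest of its group for 9 of the 10 genes and also had the lowest pan-macrophage (226 TPM), Kupffer (281 TPM) and leukocyte (90.6 TPM) sums. DEN-T-WD replicate 5 was highest for 7 genes, with the highest pan-macrophage (717 TPM) and leukocyte (228 TPM) sums of its group and the lowest hepatocyte sum, and DEN-T-WD replicate 3 was lowest for 8. The part of this in the results was not tested beyond leaving each library out.

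After the group means were removed, Pearson's r over the 25 libraries between pairs of members had a median of 0.57. It was highest for Ccr2 and Cx3cr1, at 0.90 (0.88 without DEN-T-WD replicate 5), and Trem2 had a median r of 0.72 with the other members. Spp1 (median 0.34) and Ly6c2 (0.31) followed the others least, and the lowest r of all was 0.07, between Gpnmb and Spp1. Spp1 went most closely with Cd9, at 0.71. These values describe libraries that share depth and tissue composition, and no p is attached to them.

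**Figure D5:**
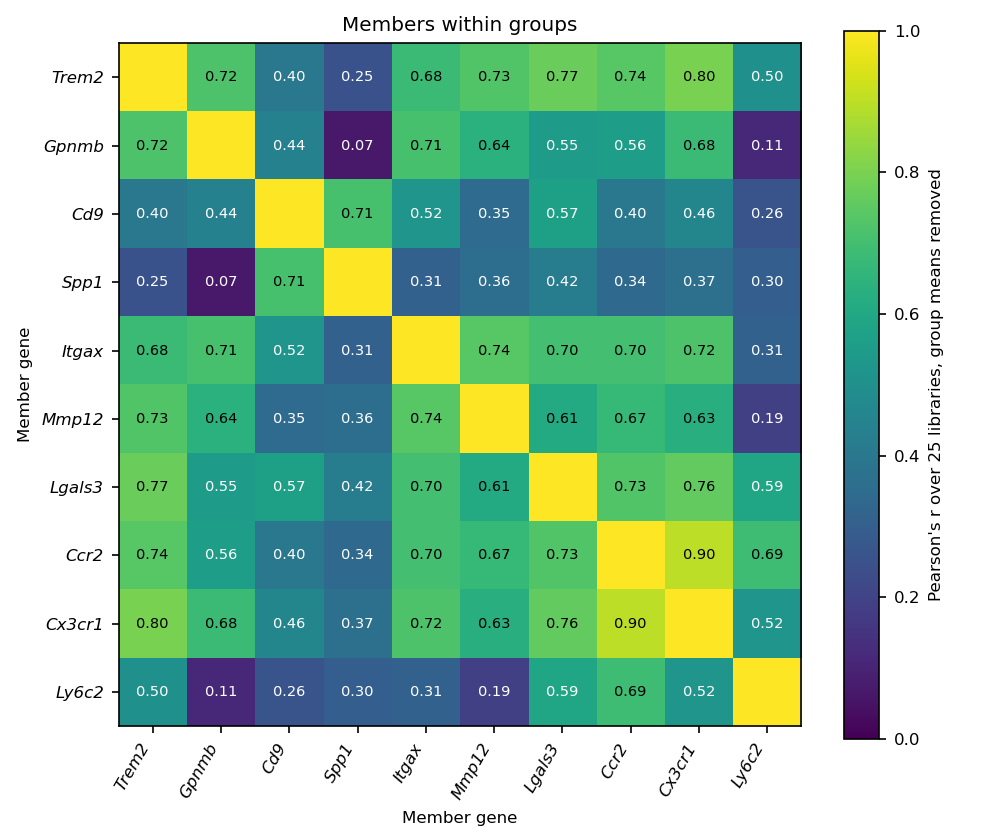
Pearson's r (colour scale and printed values) between each pair of member genes over 25 libraries after removal of the group means of log2 CPM. Ccr2 and Cx3cr1 had the highest r at 0.90, and the rows of Spp1 and Ly6c2 hold most of the low values.

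By the same measure, over 12651 genes with a mean of at least 1 CPM, the genes most like Lgals3 were Ucp2 (r = 0.89), Cd68 (0.88) and Psap (0.88), of which Cd68 and Psap encode lysosomal proteins. Ccr2 was followed most closely by Vsir (0.87), Slamf7 (0.87) and Myo1f (0.86), Cx3cr1 by Ppfia4 (0.87), Myo1f (0.86) and Nod1 (0.86), and Ly6c2 by Casp1 (0.85), Cd86 (0.83) and Atp8a1 (0.82). For Trem2 they were Cyp4f18 (0.85), Prelp (0.83) and Tgfbi (0.82), for Itgax Ptafr (0.80), Parvg (0.78) and Cd93 (0.77), and for Mmp12 Cd300lb (0.78), Plvap (0.77) and Capg (0.77). Gpnmb had Adamtsl4 (0.81), Zfp668 (0.78) and Ccdc80 (0.78). Cd9 was most like Arhgdia (0.80), Mfge8 (0.80) and Stambpl1 (0.79), and Spp1 like Smim3 (0.78), Tmem176b (0.74) and Prcp (0.72).

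In GRCm38 the 10 genes lie on 7 chromosomes. Trem2 is at chr17:48346401-48354147 on the plus strand, Gpnmb at chr6:49036546-49070929 (plus), Cd9 at chr6:125460266-125494791 (minus) and Spp1 at chr5:104435118-104441050 (plus). Itgax is at chr7:128129547-128150657 (plus), Lgals3 at chr14:47367751-47386160 (plus) and Ly6c2 at chr15:75108158-75111970 (minus). On chromosome 9 lie Mmp12 at chr9:7344381-7369499 (plus), Ccr2 at chr9:124101950-124113557 (plus) and Cx3cr1 at chr9:119901616-120069879 (minus). Other annotated genes overlap 18.8% of the exonic bases of Spp1 (Gm42793, at most 0.45 TPM in any library), 10.7% of Cd9 (Gm26728), 2.17% of Mmp12 (Mmp1b, at 0 TPM throughout) and 1.73% of Cx3cr1. Itgax shares 8.02% of its words of 50 bases with Itgad, which reached at most 0.38 TPM.

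Promoters were read for letters bound by factors of macrophages. RefSeq windows on GRCm38.p6, from 250 bases before to 50 bases after the annotated start, were found for all 10 members, 13 windows among 32851 in all. Letters searched on both strands were TGANTCA (bound by AP-1), GAGGAA (bound by PU.1, the master factor of macrophages), CACGTG and CATGTG (bound by MiT family factors). TGANTCA was in a window of 4 members, Trem2, Gpnmb, Itgax and Mmp12, and in 7.81% of all windows. GAGGAA was in Trem2, Spp1, Mmp12 and Ly6c2 and in 28.3% of all windows, CATGTG in Cd9 and Mmp12 and in 14.2%, and CACGTG in none of the members' windows and in 7.15%. Members are counted here by gene and the shares by window, so the counts and shares are not like for like. Spp1, Mmp12 and Ly6c2 each have more windows, and so more chances of a match, than the other members. The 4 windows with TGANTCA are printed with the window of Spp1, the gene called in tumors. Cx3cr1, called like these 4 genes on the western diet and in peritumoral liver, has no TGANTCA in its window. Sequences run 5′ to 3′ on the plus strand, which is the coding strand of these genes, with capitals at matches to these letters or to their reverse complement, none of which overlap.
Trem2 (chr17:48346151-48346450): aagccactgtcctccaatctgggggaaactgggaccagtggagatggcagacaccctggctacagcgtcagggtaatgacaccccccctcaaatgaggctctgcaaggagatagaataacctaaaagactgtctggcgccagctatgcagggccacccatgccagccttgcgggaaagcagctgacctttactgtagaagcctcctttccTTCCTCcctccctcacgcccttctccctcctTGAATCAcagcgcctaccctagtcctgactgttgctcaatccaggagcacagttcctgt
Gpnmb (chr6:49036268-49036567): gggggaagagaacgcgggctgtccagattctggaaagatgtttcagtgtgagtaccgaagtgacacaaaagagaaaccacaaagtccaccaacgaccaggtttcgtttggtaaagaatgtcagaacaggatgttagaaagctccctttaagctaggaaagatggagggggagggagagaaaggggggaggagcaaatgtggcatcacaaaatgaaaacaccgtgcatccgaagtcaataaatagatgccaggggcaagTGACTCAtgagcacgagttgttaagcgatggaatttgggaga
Itgax (chr7:128129300-128129599): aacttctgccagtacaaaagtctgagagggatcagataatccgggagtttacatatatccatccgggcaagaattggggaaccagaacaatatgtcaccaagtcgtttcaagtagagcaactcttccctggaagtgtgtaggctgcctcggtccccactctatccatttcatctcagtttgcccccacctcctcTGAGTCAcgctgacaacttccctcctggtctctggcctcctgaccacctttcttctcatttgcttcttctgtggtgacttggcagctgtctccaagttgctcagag
Mmp12 (chr9:7347124-7347423): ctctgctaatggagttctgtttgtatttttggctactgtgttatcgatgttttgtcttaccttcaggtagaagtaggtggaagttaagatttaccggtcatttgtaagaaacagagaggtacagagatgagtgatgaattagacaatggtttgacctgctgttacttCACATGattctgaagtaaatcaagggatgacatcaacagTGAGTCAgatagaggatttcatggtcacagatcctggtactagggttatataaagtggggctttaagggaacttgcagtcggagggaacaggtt
Spp1 (chr5:104434861-104435160): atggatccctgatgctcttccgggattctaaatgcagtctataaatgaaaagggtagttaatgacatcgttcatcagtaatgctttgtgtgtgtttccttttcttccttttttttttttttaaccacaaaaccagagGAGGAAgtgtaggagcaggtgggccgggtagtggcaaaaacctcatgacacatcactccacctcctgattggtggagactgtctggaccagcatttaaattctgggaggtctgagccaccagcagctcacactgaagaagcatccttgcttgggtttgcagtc
The match to TGANTCA began 9 bases before the start in Trem2, 56 before in Itgax, 44 before in Mmp12 and 8 bases after it in Gpnmb. A match to letters is a description of the window, and binding was not measured here.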

How the data were processed

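RNA of 25 mouse liver and tumor samples was sequenced as single-end libraries of polyadenylated RNA. The authors checked reads with FastQC, aligned them to GRCm38 with STAR and estimated gene levels with RSEM. The deposited expected counts are RSEM's unnormalized estimates, which need not be whole because reads that match several genes are divided among them. The deposited TPM values are corrected for gene length by RSEM and describe levels here. The annotation release, the use of strand and the versions of both tools are not given in the sources used here. The deposited FPKM values were not used.

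After rounding of the expected counts to whole numbers, edgeR 4.0.16 was run in R 4.3.3 (quasi-likelihood test, TMM scaling, filterByExpr with a minimum count of 10) in 1 fit over 5 groups, with Benjamini-Hochberg adjustment over 15625 genes. The thresholds are those of the study's methods, whose tool, DESeq2, was run as an alternative. Depth was 21530083 to 38074411 expected counts a library, and genes with few counts in nonDEN-L-CD are the least precise. Levels relative to pan-macrophage genes used log2 CPM (prior count 2) and exact permutation tests in Python 3.11.15. Fold changes have an SE from the fit, and 95% intervals are normal intervals from that SE.

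The member genes and marker lists were chosen with earlier results of these data known. The text names all members, for each list up to 3 called genes with the largest change, and for each member the 3 most similar genes. Tyrobp, Itgb2, Krt19, Ly6g and genes that share bases with members were named after their values were seen. Promoter windows came from RefSeq (GRCm38.p6). Replicates are separate libraries in the labels, which do not say that each came from another mouse, so p-values measure the spread between libraries. No pair of libraries agreed within sampling noise. Alternatives were DESeq2 1.42.0 (test and size factors), no filter, fits of only the groups compared, the replicate number as a block, no fold minimum, limma 3.58.1 on log2(TPM + 1) and log2(TPM + 0.1), and each library left out. A covariate for pancreatic enzyme genes was added after seeing the data. Procedures were tested on simulated data. The result of 1 marker gene is not reported here.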

Additional observations from a re-analysis of the deposited data

Results flagged for a closer look

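The interaction of DEN with diet passed edgeR's quasi-likelihood test for Cd9, at 1.38 on the log2 scale, where the difference between the diets had opposite signs without DEN (-0.83) and with DEN (0.55). All 4 nonDEN-L-WD libraries lay below the 3 nonDEN-L-CD libraries, and 7 of the 8 DEN-PT-WD libraries lay above all of DEN-L-CD. The arm with DEN and the western diet is peritumoral liver.

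In nonDEN-L-WD, replicate 1 stood apart for Spp1, at 60.1 CPM against 43.1, 41.0 and 41.4 CPM in the other libraries, a gap that on the log2 CPM scale was 0.872 of the group's range and above Dixon's 95% critical value for 4 libraries. Among 40 gene-by-group sets of libraries checked, 1 was found, where chance gives about 1 in 20, or 2. In TPM the same libraries were at 62.7, 47.8, 41.4 and 35.4, which are more evenly spaced.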

How the results depend on the processing

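Of 41 calls of member genes in the 8 comparisons, 28 were kept under all 34 alternatives, of which 25 leave out a library. Among 2720 member values under alternatives, 2630 kept their side of the thresholds, 64 lost and 26 gained a call, none of the calls changed direction, and 16 values without a call changed sign. With each library left out in turn, the number of genes called for the western diet without DEN was 2 to 6 (5 with all libraries), 0 to 2 for DEN-L-CD against nonDEN-L-CD (2), 3 to 9 for DEN-PT-WD against nonDEN-L-WD (7), 7 to 8 against DEN-L-CD (8), 1 to 1 for tumors against peritumoral liver and for the interaction (1), 8 to 9 for peritumoral liver (8) and 9 to 10 for tumors (9) each against nonDEN-L-CD, and 13 to 19 for the test relative to pan-macrophage genes (18). On the western diet without DEN 2 genes were called in a fit of only these groups, which has fewer libraries, and 1 by limma on log2(TPM + 1), a pseudocount above the level of most members in nonDEN-L-CD. For DEN-L-CD against nonDEN-L-CD 1 was called without a filter, 0 by limma on log2(TPM + 1) and 1 on log2(TPM + 0.1). A fit of only these groups called 3, where Gpnmb gained a call (1.31, edgeR adjusted p = 0.0208). In tumors against peritumoral liver 4 passed with no minimum fold change and 2 by limma on log2(TPM + 0.1).

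Groups share replicate numbers, but the deviations of same-numbered libraries had r from -0.239 to 0.388 across the pairs of groups, and in no pair of groups was every r over 0.1, so the numbers were not taken to pair libraries. As a hint from the data, the libraries that correlated best with their own number were 3 of 3 between the control-diet groups, 2 of 3 between the diets without DEN, and 1 of 6 for tumors and peritumoral liver. With the replicate block, DEN-PT-WD against nonDEN-L-WD had 3 calls. Of the 50 tests relative to pan-macrophage genes 0 passed the correction with an exact permutation test by sign flips. For 3 or 4 pairs its p cannot go below 0.125, and the 6 pairs of tumors and peritumoral liver cannot reach a p low enough for the correction. That outcome was fixed by the number of pairs, so it tells nothing about these calls. The block moved the count of calls in no other comparison. Low counts in nonDEN-L-CD, down to 4 for Trem2 and 6 for Cx3cr1, and its 3 libraries limit every comparison with that group.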
